A study of Mus musculus with 4 samples.

Results

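The Mettl7 genes encode small methyltransferase-like proteins. They were taken by gene name from the mRNA tables of 4 F1 livers, and 3 of the 4 genes named (Mettl7a1, Mettl7a2 and Mettl7b) were among the 8797 genes listed, while Mettl7a3 was not listed in these tables. All 3 had a B6-allele frequency (the B6 reads of a gene divided by its B6 and MSM reads), as did 3632 genes in all. The genes were chosen by name with their mean B6-allele frequencies already known, so these frequencies are given below as a description and without a test. Each mouse was a female of 5 months from a cross between the inbred strains C57BL/6J (B6) and MSM/Ms (MSM), which derive from different subspecies, and carried a chromosome set of each strain. 2 mice were of the MSM × B6 cross and 2 of the reciprocal B6 × MSM cross, with the mother named first. The groups therefore share their genotype at the autosomes and differ in which strain was the mother. Polyadenylated RNA of whole liver was sequenced, and expression is given in FPKM (fragments scaled to the transcript length and to the fragments mapped in the library).

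Proteins of the METTL7 family sit in the membrane of the endoplasmic reticulum and on lipid droplets, the organelles in which cells store neutral lipid. They carry a methyltransferase fold that binds S-adenosylmethionine, the methyl donor of the cell, and their human counterparts METTL7A and METTL7B methylate thiol groups of small molecules, hydrogen sulfide among them. Liver is a main site of such reactions on drugs and metabolites and also turns over lipid droplets. Mouse has several copies of the METTL7A gene side by side (Mettl7a1, Mettl7a2 and Mettl7a3), whereas Mettl7b lies on another chromosome.

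In the mm10 assembly, whose sequence is that of the B6 strain, GENCODE M21 places Mettl7a1 at chr15:100304140-100328662, Mettl7a3 at chr15:100334929-100340375 and Mettl7a2 at chr15:100353200-100361840, all on the plus strand. The outermost annotated starts of Mettl7a1 and Mettl7a2 lie 49.06 kb apart, with that of Mettl7a3 between them, and distances between genes are measured from these starts throughout. Mettl7a1 has several annotated starts. Its longest annotated transcript, whose sequence is used for the comparisons of the copies, begins 621 bases downstream of the outermost one. Mettl7b is at chr10:128958274-128960988 on the minus strand. Mettl7a2 overlaps Methig1, a gene on the same strand that starts in Mettl7a2 and reads on past it, and Mettl7b overlaps Itga7 on the opposite strand. Neither of these overlapping genes was listed in the tables, and the alignment was set to the strand of the library. The longest annotated transcript of each of the 4 genes, which was the one used, has 2 exons and a coding part of 735 bases, stop codon included.

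The coding parts show how close the copies are. Mettl7a1 and Mettl7a2 are identical at 94.7% of aligned coding bases and Mettl7a2 and Mettl7a3 at 99.0%, while Mettl7a1 and Mettl7b are identical at 65.4%. The first 90 coding bases, which lie in the first exon, are printed here from the reference to make this visible, with capitals where a base differs from that of Mettl7a1 at the same position. Mettl7a2 differs from Mettl7a1 at 7 of these positions, Mettl7a3 at 9 and Mettl7b at 45.
Mettl7a1: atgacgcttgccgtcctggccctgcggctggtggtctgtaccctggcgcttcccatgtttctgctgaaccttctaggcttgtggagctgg
Mettl7a2: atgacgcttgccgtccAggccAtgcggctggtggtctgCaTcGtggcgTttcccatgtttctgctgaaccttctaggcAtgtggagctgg
Mettl7a3: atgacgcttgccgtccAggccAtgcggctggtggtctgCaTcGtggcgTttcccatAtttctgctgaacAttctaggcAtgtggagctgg
Mettl7b: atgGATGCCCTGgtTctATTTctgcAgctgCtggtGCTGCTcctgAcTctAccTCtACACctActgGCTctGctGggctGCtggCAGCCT

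Because the aligner was set to report 1 alignment per read, the parts that the copies share unchanged bear on the values of Mettl7a1 and Mettl7a2. The longest stretch common to both has 164 bases, all coding, at chr15:100305156-100305319 in Mettl7a1 and chr15:100353519-100353682 in Mettl7a2. A read that lies wholly inside it matches both genes equally well on the reference.
Shared stretch: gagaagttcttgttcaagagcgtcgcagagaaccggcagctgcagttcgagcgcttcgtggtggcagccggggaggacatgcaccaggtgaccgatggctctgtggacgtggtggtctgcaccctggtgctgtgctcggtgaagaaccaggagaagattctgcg

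Over the whole Mettl7a1 transcript, 0.835% of all possible stretches of 150 bases, the read length, also occur in a transcript of another gene. The corresponding share is 45.1% for Mettl7a2. These stretches are common to Mettl7a3 (396 of 1651 stretches, 24.0%) or to the overlapping Methig1 (360 stretches), and only 15 of them occur in Mettl7a1. Because Methig1 overlaps Mettl7a2 on the same strand, stretches common to both genes can be the same bases of the genome. There the gene that a read is counted for is in question, rather than the place of its alignment. For Mettl7a3 the share is 26.3%, and no stretch of Mettl7b occurs in another gene. The level and the allele frequency of Mettl7a2 are therefore given as uncertain, and those of Mettl7b rest on sequence of its own.

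**Figure D1:**
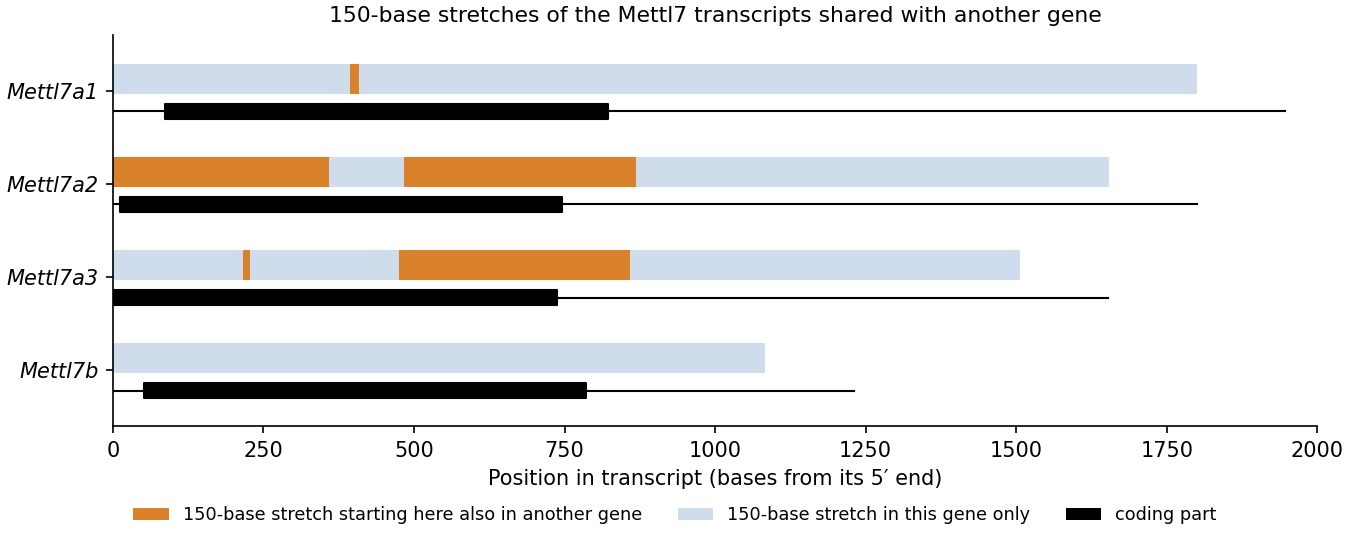
Transcripts of the 4 Mettl7 genes in bases from their 5′ end, with the coding part in black; orange marks start positions of 150-base stretches that also occur in another gene, blue those found in that gene only. The orange share is 45.1% in Mettl7a2, 26.3% in Mettl7a3, 0.835% in Mettl7a1 and 0 in Mettl7b.

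The sequences upstream of the start sites are given for the B6 reference only, so that they hold no difference between the B6 and MSM alleles and do not bear on the allele frequencies. RefSeq (GRCm38.p6, the same build) had an entry for 3 of the 4 genes. Its start of Mettl7a1 lies 677 bases downstream of the outermost start in GENCODE, and those of Mettl7a2 and Mettl7b are the same in both. Of the promoter windows of 300 bases, those of Mettl7a1 and Mettl7a2 each hold 1 CCAAT box (CCAAT on either strand), 62 and 72 bases before the RefSeq start, and that of Mettl7b holds none, while 37.4% of all 32851 windows hold this motif. The TATA box letters TATAAA (either strand) occur once in the window of Mettl7a2, 190 bases before the RefSeq start. They occur in neither of the other windows, against 13.6% of all windows. The window of Mettl7a2 was also the only one of these to hold the GC box letters GGGCGG, once, 164 bases before the start. The same was found for the nuclear receptor half-site AGGTCA, 43 bases before it. Of all windows, 35.7% hold the GC box letters and 16.3% the half-site. The 100 bases before and 20 bases after each RefSeq start are shown, with the CCAAT box in capitals; they lie at chr15:100304717-100304836, chr15:100353100-100353219 and chr10:128960969-128961088 (minus strand).
Mettl7a1: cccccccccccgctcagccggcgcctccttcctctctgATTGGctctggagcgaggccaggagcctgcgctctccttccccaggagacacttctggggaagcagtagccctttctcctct
Mettl7a2: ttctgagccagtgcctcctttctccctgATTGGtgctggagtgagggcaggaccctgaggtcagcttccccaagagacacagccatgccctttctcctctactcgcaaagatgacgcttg
Mettl7b: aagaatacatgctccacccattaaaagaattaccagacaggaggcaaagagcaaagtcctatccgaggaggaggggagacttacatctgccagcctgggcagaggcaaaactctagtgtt

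The 3 genes were expressed at very different levels. Mettl7b, the most abundant, had an FPKM of 471 and 389 in the MSM × B6 mice and of 449 and 476 in the B6 × MSM mice. Its mean of 446 ± 40.1 (SD, n = 4) placed it at rank 206 of the 8797 genes. Mettl7a1 was listed at 112 and 107 in MSM × B6 and at 102 and 123 in B6 × MSM. Its mean of 111 ± 9.12 gave rank 805. Both genes thus varied little among the mice, by 8.97% and 8.21% of the mean.
Mettl7a2 was low, with an FPKM of 5.87 and 2.48 in the MSM × B6 mice and of 3.46 and 4.92 in the B6 × MSM mice, a mean of 4.18 ± 1.51 (36.1% of the mean) at rank 7394. The lowest mean FPKM of any gene listed was 2.50. In each of the 4 mice the order was Mettl7b, Mettl7a1, Mettl7a2, and the ranges of the 3 genes did not overlap.
FPKM is scaled by transcript length, so that levels can be set against each other between genes. Mettl7b was 4.22 and 3.63 times Mettl7a1 in the MSM × B6 mice and 4.40 and 3.86 times in the B6 × MSM mice, on average 4.03 ± 0.351 (SD, n = 4). The ratio of Mettl7a1 to Mettl7a2 ranged more widely, from 19.0 to 43.3. Of the summed FPKM of the 3 genes, which was 499 to 605, Mettl7b made up 79.5% on average, Mettl7a1 19.8% and Mettl7a2 0.733%.

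**Figure D2:**
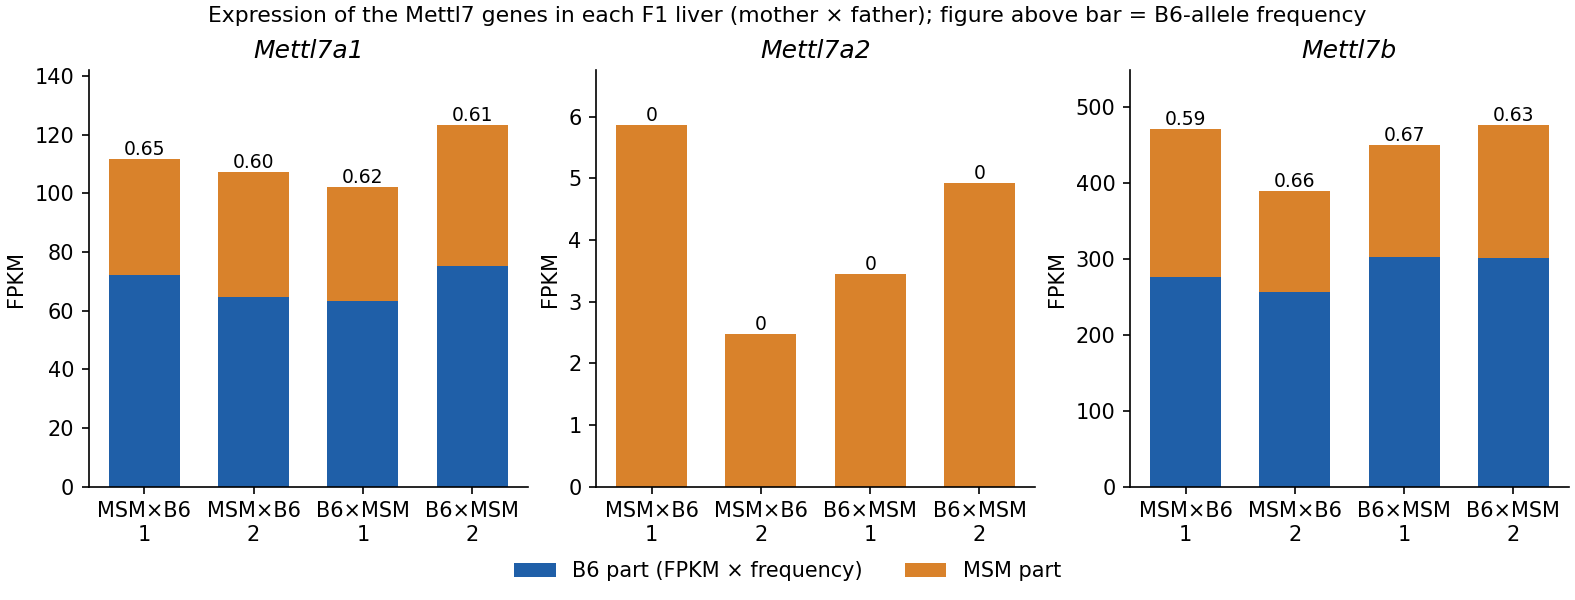
Expression (FPKM) of each listed Mettl7 gene in each of the 4 livers, labelled mother × father with the replicate number; each bar is split into a B6 and an MSM part by the B6-allele frequency, printed above it, and the axes start at 0 and differ in scale. Mettl7a2 has no B6 part in any mouse, while the B6 part is the larger in every bar of Mettl7a1 and Mettl7b.

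The allele frequencies set Mettl7a2 apart from Mettl7a1, while Mettl7a3, the copy that lies between them, had none. The B6-allele frequency of Mettl7a2 was 0 in all 4 mice, so that every allele-assigned read counted for it was an MSM read. The part of the stretches that Mettl7a2 shares with Mettl7a3 and Methig1 in this value was not tested. 4 of the 3632 genes (0.110%) had a frequency of 0 in every mouse. Mettl7a1 had frequencies of 0.648 and 0.603 in MSM × B6 and of 0.621 and 0.611 in B6 × MSM. Its mean was 0.621 ± 0.0196 (SD, n = 4), and all 4 mice lay above 0.5. For Mettl7b the frequencies were 0.587 and 0.657 in MSM × B6 and 0.672 and 0.632 in B6 × MSM, with a mean of 0.637 ± 0.0373. All 4 mice were again above 0.5, and the ranges of Mettl7a1 and Mettl7b overlapped. Within a mouse, Mettl7b had the higher frequency in all but replicate 1 of the MSM × B6 cross. The difference between these 2 genes was not tested.
The study took a gene as MSM-biased when the mean frequency of the reciprocal crosses was at most 0.2 and as B6-biased when it was at least 0.8. 1 of the 3 genes, Mettl7a2, was past the lower limit, as were 1.35% of all genes with a frequency. None of the 3 was past the upper limit, which 1.84% of genes passed. Both shares were computed here from the frequencies in the mRNA tables, and the study reported more genes past each limit. Mettl7a1 and Mettl7b lay between the limits, but high among all genes, since 332 genes (9.14%) had a higher mean frequency than Mettl7a1 and 273 (7.52%) a higher one than Mettl7b. A mean frequency of at least 0.6 was found in 446 genes (12.3%).

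**Figure D3:**
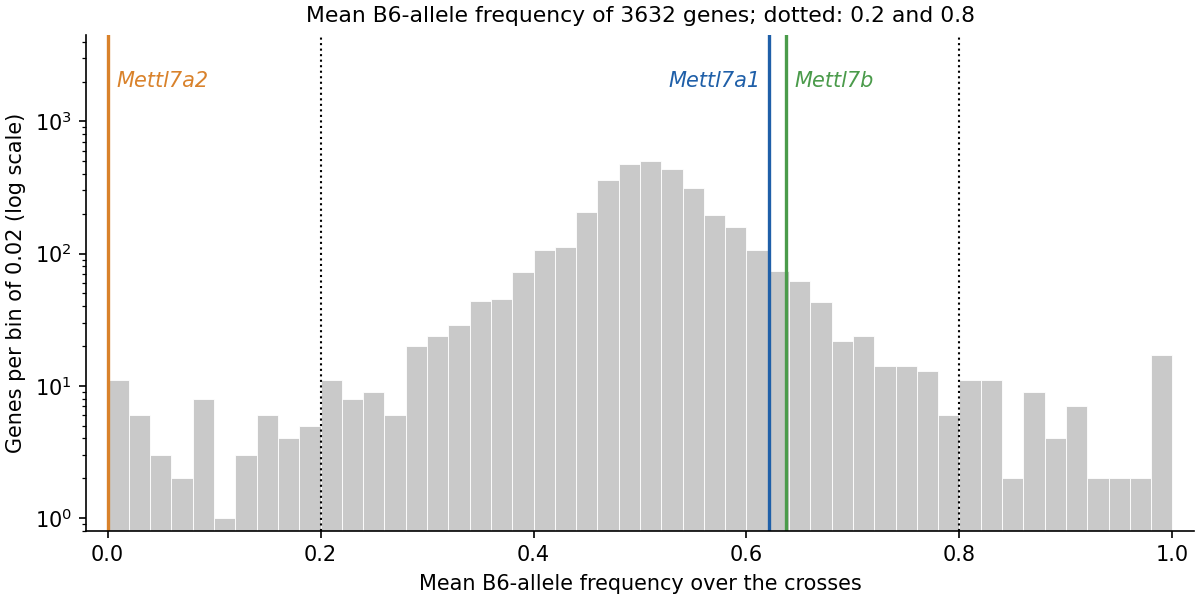
Number of genes (log scale) by mean B6-allele frequency over the crosses, in bins of 0.02, for the 3632 genes with a frequency; colored lines mark the 3 Mettl7 genes and dotted lines the limits 0.2 and 0.8. Mettl7a2 stands at 0, and Mettl7a1 (0.621) and Mettl7b (0.637) stand on the B6 side of the main peak.

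No read numbers come with the frequencies, so their depth is unknown and no interval can be given for a single value. The spread between mice can be given for the genes whose frequency varied. Among the 192 genes with a mean FPKM within 1.5 times that of Mettl7a1, the median SD of the frequency over the 4 mice was 0.0147, and among the 101 such genes for Mettl7b it was 0.0159. Mettl7a1 (0.0196) and Mettl7b (0.0373) were above these medians and below the third quartiles of 0.0225 and 0.131. Mettl7a2 lies at the end of the scale in every mouse, so that its SD of 0 says nothing of its precision.
When the FPKM was split by the frequency, which assumes that reads without a strain difference divide as the others do, Mettl7b gave 284 ± 22.1 FPKM from the B6 allele and 163 ± 27.5 from the MSM allele (SD, n = 4). For Mettl7a1 the parts were 68.9 ± 5.83 and 42.1 ± 4.30. All of the 4.18 FPKM of Mettl7a2 fell to the MSM allele. Weighted by FPKM, the frequency of the 3 genes together was 0.593 and 0.643 in MSM × B6 and 0.659 and 0.623 in B6 × MSM, close to that of Mettl7b.

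Reciprocal crosses show whether the level or the allele used depends on which strain was the mother. No Mettl7 gene was called between the crosses in either measure (limma), and the mice of the crosses overlapped in every case. For expression, 0 of 3 genes had an adjusted p-value under 0.05, against 0.0455% of all 8797 genes. None had an unadjusted p-value under 0.05, against 8.87% of all genes. Differences are given as MSM × B6 minus B6 × MSM on the log2(FPKM + 1) scale, with Benjamini-Hochberg adjustment. Mettl7b differed by -0.11 (SE 0.18, 95% interval -0.55 to 0.33, limma adjusted p = 0.844), and Mettl7a1 by -0.04 (SE 0.16, interval -0.43 to 0.35, limma adjusted p = 0.95). For Mettl7a2 the difference was -0.07 (SE 0.33, interval -0.89 to 0.75, limma adjusted p = 0.953), so that a change of 1.5-fold in either direction would have lain within the interval of this gene.
For the allele frequency, 0 of the 2 genes that varied among the mice were called, against 0.0826% of the 3632 genes. Neither had an unadjusted p-value under 0.05, against 5.23% of the 3632 genes. The log2 odds of the B6 allele differed by 0.06 for Mettl7a1 (SE 0.14, interval -0.35 to 0.47, limma adjusted p = 0.961) and by -0.18 for Mettl7b (SE 0.21, interval -0.82 to 0.45, limma adjusted p = 0.933). Mettl7a2 had a frequency of 0 in both crosses and hence a difference of 0, which leaves nothing to test. The MSM allele was therefore the one counted for Mettl7a2 whether it came from the mother or from the father.
A comparison of 2 mice with 2 allows no two-sided exact permutation p below 0.333, and these tests rest on the variance shared across genes. Leaving out 1 mouse turned the sign of the small expression differences, to 0.10 for Mettl7a1 without replicate 2 of the B6 × MSM cross, to 0.03 for Mettl7b without replicate 2 of the MSM × B6 cross, and to 0.42 and 0.13 for Mettl7a2 without replicate 2 of the MSM × B6 or of the B6 × MSM cross.

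**Figure D4:**
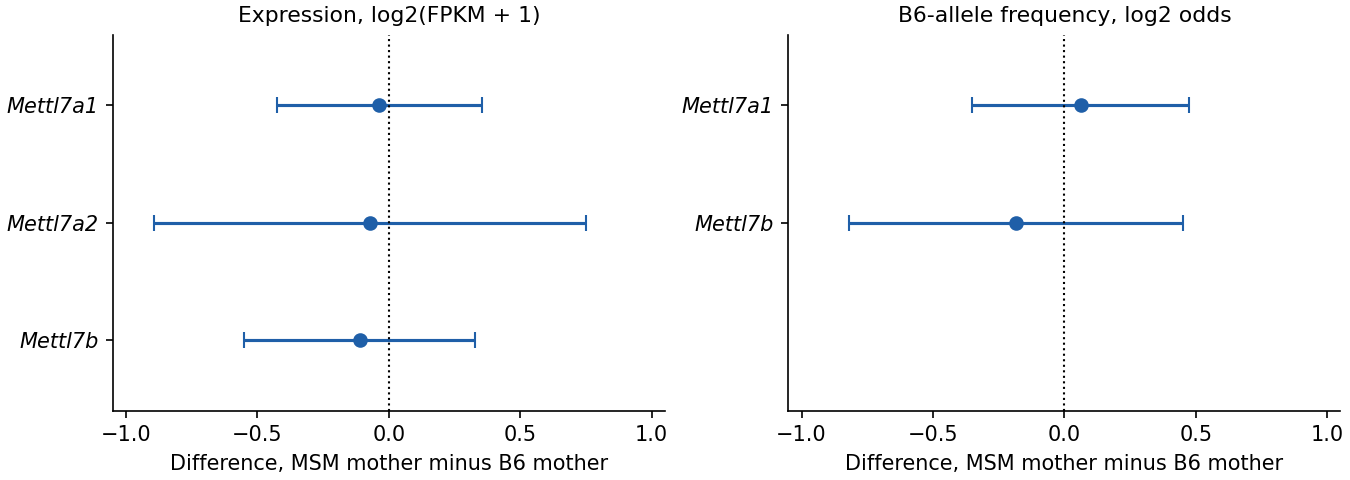
Differences between the reciprocal crosses (MSM × B6 minus B6 × MSM) in expression, left, and in the log2 odds of the B6 allele, right, with 95% intervals from limma (n = 2 mice a cross); Mettl7a2 is not drawn at right because its frequency was 0 in all mice. Every interval drawn includes 0.

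Over the whole tables, the 4 livers correlated with r of 0.961 to 0.978 across genes, and the median B6-allele frequency of a mouse was 0.509 to 0.512. All 4 genes called in expression between the crosses (Mup9, Cyp2e1, Snord104 and Mir1957b) were listed at 0 in both MSM × B6 mice, and an exact 0 in such tables can be a failed estimate. Of the hepatocyte markers, 5 of 7 were listed, without Alb and Tf. Their summed FPKM was 13615 to 14557 in MSM × B6 and, leaving out Cyp2e1, 10230 to 12830 in B6 × MSM. The sum of the Kupffer cell and macrophage markers (5 of 7 listed, without Adgre1 and Marco) was 113 to 123 in MSM × B6 and 151 to 164 in B6 × MSM. The sinusoidal endothelial markers (6 of 6 listed) gave 127 to 131 and 147 to 148. The stellate cell markers (4 of 6 listed, without Lrat and Des) gave 114 to 131 and 94.9 to 115. Such sums rest mostly on the most abundant markers. Among the stellate markers, Dcn was lower in B6 × MSM (58.7 and 67.5, against 88.9 and 73.7). Hgf was higher there (4.22 and 5.52, against 2.50 and 2.41), and Reln and Colec11 overlapped between the crosses. Among the hepatocyte markers Hnf4a overlapped. All 5 Kupffer cell and macrophage markers were higher in both B6 × MSM mice. Of the endothelial markers, Clec4g, the most abundant, and Lyve1 overlapped, while Stab2, Kdr, Pecam1 and Eng were higher in both B6 × MSM mice. An unadjusted limma p-value under 0.05 was found in 3 of 5 Kupffer cell, 0 of 6 endothelial, 1 of 4 stellate and 1 of 5 hepatocyte markers, against 8.87% of all genes. Of these only Cyp2e1 was called. Of the bile duct markers 1 of 5 (Spp1) was listed, at 9.51 to 14.6, and of the lymphocyte markers 0 of 6. The part of these sums in the differences of the Mettl7 genes was not tested, and in whole liver fewer cells of a type and less RNA per cell cannot be told apart.

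The genes next to the Mettl7 loci show which frequencies are found on the same chromosome segments. Around Mettl7a1 and Mettl7a2, 4 listed genes had a start site within 250 kb. Their mean B6-allele frequencies were 0.451 for Atf1 (a CREB family transcription factor), 0.499 for Slc11a2 (the iron transporter DMT1), 0.557 for Letmd1 and 0.478 for Tfcp2. None was called against 0.5 in either direction, which with 4 mice does not show that they are balanced. By these values, a frequency of 0 was found in Mettl7a2 and in none of these neighbors. The mean of Mettl7a1, 0.621, lay above the highest of their means, while Letmd1 reached 0.622 in replicate 1 of the B6 × MSM cross.
Around Mettl7b, 9 listed genes lay in the window, with mean frequencies of 0.463 to 0.624 and 6 of them above 0.5. The listed gene nearest to Mettl7b was Bloc1s1, a subunit of a complex that builds lysosome-related organelles. Its start site lay 37.0 kb from that of Mettl7b. It had a frequency of 0.601 ± 0.0102 (SD, n = 4), and its log2 odds differed from 0 by 0.59 (SE 0.04, limma adjusted p = 0.0067), with all 4 mice above 0.5. Mmp19, a matrix metalloproteinase at 170 kb, had a frequency of 0.597 ± 0.0218 (log2 odds 0.57, SE 0.07, limma adjusted p = 0.0163), again with all 4 mice above 0.5. The other 7 were not called, among them the tetraspanin gene Cd63 (0.624, limma adjusted p = 0.0624) and the retinol dehydrogenase gene Rdh5 (0.545, limma adjusted p = 0.0519).
Thus 2 of 9 neighbors of Mettl7b and 0 of 4 neighbors of the chromosome 15 genes were called toward B6, where 22.6% of all genes were, and none was called toward MSM, where 13.6% of all genes were. Both calls held with 1 mouse left out only in the fit without replicate 2 of the MSM × B6 cross, and the adjusted p-values ranged from 0.0477 to 0.0633 for Bloc1s1 and from 0.0427 to 0.103 for Mmp19. Between the crosses, none of the neighbors was called in expression or in frequency (limma). In each measure 1 of the 4 on chromosome 15 and 0 of 9 on chromosome 10 had an unadjusted p-value under 0.05. Over all genes, 8.87% had such a p-value in expression and 5.23% in frequency.

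**Figure D5:**
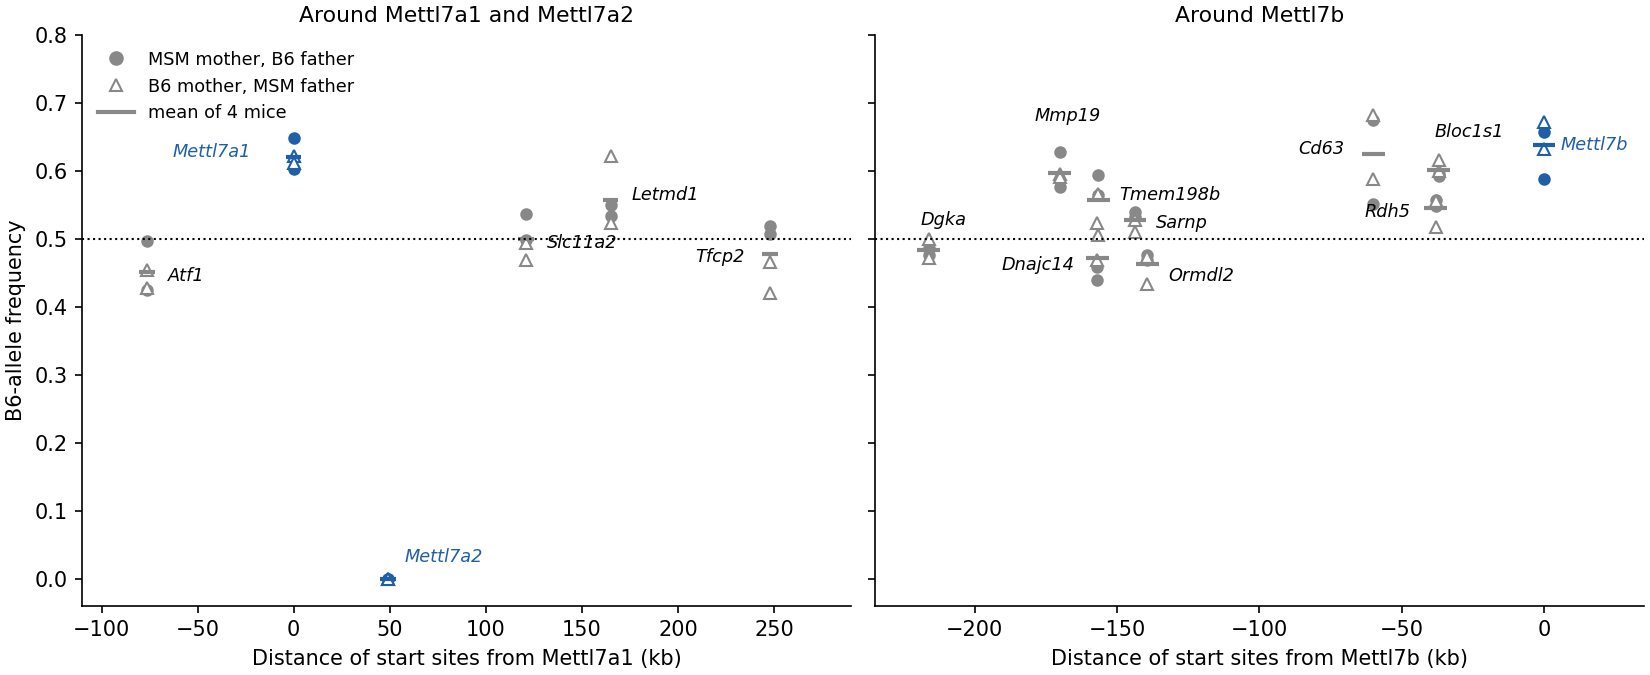
B6-allele frequency in each mouse against the distance of start sites in kb, around Mettl7a1 and Mettl7a2 (left) and around Mettl7b (right); circles are MSM × B6 mice, triangles B6 × MSM mice, and bars the means of 4 mice. Mettl7a2 lies at 0 while the means of the 4 genes around it lie between 0.451 and 0.557. The mean of Mettl7b (0.637) lies near those of Cd63 (0.624) and Bloc1s1 (0.601).

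Which genes had a frequency at all depended on position, a pattern known from earlier results of these data. On chromosome 15, 1 of 300 listed genes with a start site below 100 Mb had a B6-allele frequency (0.333%), and 34 of 35 beyond it did (97.1%). The outermost starts of Mettl7a1 and Mettl7a2 lie 304 kb and 353 kb beyond this coordinate. On chromosome 10, 5 of 318 genes below and 111 of 112 genes beyond 100 Mb had a frequency (1.57% and 99.1%), and Mettl7b starts at 129.0 Mb. The Mettl7 genes of chromosome 15 therefore lie close to the edge of the part in which frequencies are given.

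The genes with the most similar allele frequencies were sought over the 4 mice among all 3632 genes. For Mettl7a1 they were Lrg1, with a mean absolute difference in frequency of 0.0066, P2rx4 (0.0096) and Dars (0.0098), on chromosomes 17, 5 and 1. For Mettl7b they were Rab4a (0.0107), Tacc2 (0.0147) and Bid (0.0150). The frequency of Mettl7a2 was matched exactly by Gm1943, H2-Ea-ps and Serpina12, the other 3 genes with 0 in every mouse. Their mean FPKM was 5.19, 7.62 and 11.2, all above the 4.18 of Mettl7a2.

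Other genes named methyltransferase-like gave a view of the wider name group, whose members modify RNA or proteins and are not close relatives of Mettl7. 15 of them were listed, at a mean FPKM of 2.66 to 22.8, so that Mettl7b and Mettl7a1 stood above all 15 and Mettl7a2 within their range. 7 had a frequency, from 0.473 to 0.605 with a median of 0.495, against a median of 0.510 over all genes. None was past 0.8 or 0.2. 1 of 7 was called toward B6 and none toward MSM, against 22.6% and 13.6% of all genes. The former, named after its value was seen, was the tRNA methyltransferase gene Mettl1 (0.605, limma adjusted p = 0.0135). In limma 0 of 15 were called between the crosses in expression, with a median log2 difference of 0.09, against 0.02 over all genes. 1 of 15 had an unadjusted p-value under 0.05, against 8.87% of all genes. In frequency 0 of 7 were called, and 3 of 7 had an unadjusted p-value under 0.05, against 5.23% of all genes with a frequency.
The 3 with the highest mean FPKM were the histidine methyltransferase gene Mettl9 (22.8), Mettl23 (17.9) and the ribosomal RNA methyltransferase gene Mettl5 (15.5, without a frequency). Mettl9 had a mean frequency of 0.473. Mettl23 had frequencies of 0.370 and 0.278 in MSM × B6 and of 0.619 and 0.712 in B6 × MSM, which do not overlap. Its log2 odds differed by -2.08 (SE 0.34), with an unadjusted p-value of 0.0068 from limma and an adjusted one of 0.796.

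The small-molecule methyltransferases and enzymes of the methyl donor cycle share the chemistry or the substrate of the METTL7 proteins. 21 of 28 were listed, with a median of the mean FPKM of 97.3, so that Mettl7a1 (111) stood near the middle of the list and Mettl7a2 (4.18) near its lower end of 3.84. The most abundant were Gnmt, the glycine N-methyltransferase (3535), Bhmt, the betaine-homocysteine methyltransferase (1963), and Mat1a, which makes S-adenosylmethionine in liver (1789). In limma 0 of 21 were called in expression between the crosses, with a median log2 difference of 0.15, against 0.02 over all genes. 3 of 21 had an unadjusted p-value under 0.05, against 8.87% of all genes. Gnmt differed by 0.51 (limma adjusted p = 0.597), Bhmt by 0.95 (limma adjusted p = 0.427) and Mat1a by 0.36 (limma adjusted p = 0.611).
8 of them had a frequency, from 0.388 to 0.751 with a median of 0.493, and none was past 0.8 or 0.2. Between the crosses 0 of 8 were called, and 0 of 8 had an unadjusted p-value under 0.05, against 5.23% of all genes with a frequency. 2 of 8 were called toward B6 and 2 of 8 toward MSM, against 22.6% and 13.6% of all genes. These 4 genes, named after their values were seen, were the arsenite methyltransferase gene As3mt (0.751) and Icmt (0.556), a methyltransferase of prenylated proteins, toward B6, and Coq5, of ubiquinone synthesis (0.388), and the cystathionine synthase gene Cbs (0.400) toward MSM. Mettl7a1 and Mettl7b, at 0.621 and 0.637, lay below As3mt only.

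Lipid droplet proteins were taken as the other set, because METTL7 proteins are found on these organelles. 22 of 29 were listed, with mean FPKM of 3.75 to 364, and Mettl7b (446) stood above all of them. The most abundant were Dgat2, the last enzyme of triglyceride synthesis (364), Cideb, a droplet protein of lipoprotein loading (256), and the droplet coat protein gene Plin2 (189). In limma 0 of 22 were called in expression between the crosses, with a median log2 difference of 0.08. 3 of 22 had an unadjusted p-value under 0.05, against 8.87% of all genes. 9 had a frequency, from 0.329 to 0.673, none past 0.8 or 0.2. Between the crosses none of the 9 was called, and 0 of 9 had an unadjusted p-value under 0.05, against 5.23% of all genes with a frequency. 3 of 9 were called toward B6 and 1 of 9 toward MSM, against 22.6% and 13.6% of all genes. The former, named after their values were seen, were the coat protein genes Plin3 (0.648) and Plin5 (0.586) and the lipase inhibitor gene G0s2 (0.585), and the latter was Hsd17b11 (0.329), a droplet-bound dehydrogenase.
The calls against 0.5 depended on the number of mice. Of the genes of these 3 lists and the neighbors, 11 were called with all 4 mice, 5 and 8 without replicate 1 or 2 of the MSM × B6 cross, and 3 and 2 without replicate 1 or 2 of the B6 × MSM cross. As3mt and Hsd17b11 kept their call in each of these fits.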

How the data were processed

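Liver mRNA of 4 female F1 mice was sequenced in the study (150-base paired-end reads of stranded poly(A) libraries). After trimming (Trim Galore!), the authors used TopHat2 on an mm10 genome with N at SNP sites, in strand-specific mode and with 1 alignment reported per read, then SNPsplit to separate the alleles and Cuffdiff to count allele reads per gene; versions are not given in the sources used here. The authors deposited FPKM per gene, by a tool not given in the sources used here, and a fraction, the B6-allele frequency. No read counts are in these tables, so depth is unknown. Groups came from the labels.

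Between the crosses, expression as log2(FPKM + 1) was tested with limma 3.58.1 (R 4.3.3) and a variance trend. All 8797 genes passed the filter, a mean FPKM of 1 or more. On this scale the change of low genes is understated. Frequencies limited to 0.01 to 0.99 were tested as log2 odds, with the cross term for the difference and the intercept against 0.5 for lists and neighbors only. Tests were two-sided, adjusted over all genes tested, at 0.05. They were also tested on simulated data, with changes far larger than the differences between the crosses given for the Mettl7 genes. That check does not show whether such small differences would be called. Whether the 2 mice of a cross share a litter is not given in the sources used here. Sequences came from mm10 with GENCODE M21 and from RefSeq promoter windows (250 bases before to 50 after a start), read with Python 3.11.15, pandas 2.3.3 and Biopython 1.88, and matplotlib 3.10.9 drew the plots.

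The genes, lists and tests were chosen with earlier results of these data known. Named genes are the Mettl7 genes, listed genes starting within 250 kb, the 3 nearest in frequency, and, per list, genes called between the crosses, past 0.8 or 0.2, or among the 3 highest in FPKM; others are said to be named after their values were seen. Equal replicate numbers were checked for pairing: deviations correlated with r = 0.0038 in expression and 0.146 in frequency over 2 pairs, and no label ties them. Other pseudocounts, filters, limits, scalings, a block for the replicate number and fits without each mouse were tried as alternatives.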

Additional observations from a re-analysis of the deposited data

How the results depend on the processing

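No Mettl7 gene was called between the crosses, in expression or frequency, under any alternative run (49 fits, lowest limma adjusted p 0.318), leaving out the frequency of Mettl7a2, which is 0 in every mouse and could not be called. The mean frequencies stayed within 1 SD, at 0.610 to 0.632 for Mettl7a1 and 0.620 to 0.655 for Mettl7b, over a median, a mean weighted by FPKM and the omission of each mouse. With 1 mouse left out, where the lone mouse of a cross is assumed to vary like the other cross, expression differences ranged from -0.17 to 0.10 (Mettl7a1), -0.56 to 0.42 (Mettl7a2) and -0.25 to 0.026 (Mettl7b), and log2 odds differences from -0.077 to 0.20 (Mettl7a1) and -0.40 to 0.032 (Mettl7b), with a change of sign in each. Mettl7a2 has no value with a mean FPKM of at least 5. The replicate block, in which equal numbers share only a label, moved the genes called in expression from 4 to 285 and those called toward B6 and MSM to 481 and 294. Leaving out a mouse gave 13 to 21 genes called in expression, 0 to 6 in frequency between the crosses (1 with frequencies limited to 0.001 from either end), 108 to 315 toward B6, 73 to 199 toward MSM, and 2 to 8 among the lists and neighbors. With limits of 0.9 and 0.1, 30 genes passed the upper and 30 others the lower one, with 0.7 and 0.3, 138 and 103 did, and 44 and 34 passed 0.8 and 0.2 in every mouse. The share of stretches found in another gene rose, by construction, with 100 and 50 bases to 7.42% and 24.8% for Mettl7a1, 53.4% and 65.1% for Mettl7a2 and 31.9% and 46.5% for Mettl7a3, and stayed at 0 for Mettl7b.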
